A study of Mus musculus with 6 samples.

Results

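The genes described here are 10 members of the Hippo pathway of the mouse: the coactivator genes Yap1 and Wwtr1 (which encodes TAZ), the DNA-binding partner genes Tead1, Tead2, Tead3 and Tead4, the kinase genes Lats1 and Lats2, and the scaffold genes Amotl1 and Amotl2. They were chosen by name from a table of 53323 loci, with earlier results of these data known. All 10 had a row that passed the filter on low counts, among 16787 rows tested. RNA came from cultured mouse embryonic fibroblasts, connective-tissue cells grown out of embryos, in DMEM with 15% FBS and 1% NEAA. There were 3 WT libraries and 3 libraries labelled Fbxw7 KO. The strain, the age of the embryos, the deleted exons, the way of deletion and whether the libraries of 1 genotype came from separate cultures are not stated in the sources used here. The p-values therefore cover the spread among these libraries alone, and that spread may be technical.

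In the Hippo pathway, the kinases STK3 and STK4 with the scaffold SAV1 activate the kinases LATS1 and LATS2, which work with MOB1 proteins. LATS kinases phosphorylate YAP and TAZ, which then stay in the cytoplasm or are degraded. Unphosphorylated YAP and TAZ enter the nucleus and switch on genes by binding TEAD factors, and in fibroblasts they are known to respond to cell spreading, stiff substrates and actin tension. Angiomotin family proteins, among them those of Amotl1 and Amotl2, bind YAP and TAZ and activate LATS kinases. Amotl2 and Lats2 are themselves known targets of YAP and TEAD. Much of this control acts on protein phosphorylation and location, which RNA sequencing does not measure. FBXW7 is the F-box protein by which an SCF ubiquitin ligase picks its substrates, and it marks proteins such as MYC and cyclin E for degradation.

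The libraries held 55720129 to 64198455 estimated fragments. Levels are given as CPM (fragments relative to each library's TMM-adjusted total) where libraries are compared, and as FPKM (the deposited values, scaled by both library total and transcript length) where genes are compared. Fbxw7 itself read 29.5, 28.4 and 30.1 CPM in the WT libraries and 27.6, 27.4 and 24.1 CPM in the knockout-labelled libraries (log2 fold change -0.16 ± 0.10 SE, edgeR quasi-likelihood test, Benjamini-Hochberg adjusted p = 0.332). This sum over all exons does not check the genotype. Libraries were compared by a chi-square statistic per locus, a squared count difference relative to sampling noise. Between replicates 1 and 2 its median over loci was 6.46 times the value for sampling noise alone in WT, and 5.84 times in the knockout. Between these and the third library of their genotype it was 22.2 to 34.2 times. Xist, transcribed from the inactive X chromosome of XX cells, was at 0.212 to 2.17 CPM in the WT libraries and at 798 to 1046 CPM in the knockout. The Xist difference coincided with genotype in every library, so the part of each in the results cannot be told apart and was not tested. The fibroblast label was checked against markers: the 10 fibroblast markers summed to 30408 to 40402 CPM in the WT libraries and 31671 to 38542 CPM in the knockout, although 3 of them (Vim, Dcn and the locus that holds S100a4) differed between genotypes in edgeR. The 6 epithelial markers summed to at most 0.454 CPM, with Krt14 and Krt8 at 0, the 4 skeletal muscle markers to at most 0.245 CPM, with Myod1 and Myf5 at 0, and the 3 neural markers with a row to at most 2.06 CPM, with Sox2 at 0. The 4 endothelial markers summed to 6.46 to 9.24 CPM in the WT libraries and 0.614 to 1.42 CPM in the knockout, mostly from Kdr. Kdr and Tek were lower in the knockout (edgeR adjusted p of 0.00274 and 0.0227), while Pecam1 and Cdh5 read at most 0.166 and 0.0341 CPM. In bulk RNA, fewer cells of a type and less RNA per cell cannot be told apart. The 4 macrophage and leukocyte markers summed to 1.49 to 2.26 CPM and 0.631 to 1.36 CPM, with Adgre1 at 0. The part of these markers in the results was not tested.

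None of the 10 genes differed between knockout and WT past an adjusted p of 0.05 in edgeR (0 genes), where 16.1% of all genes tested did, 8.03% higher and 8.08% lower. The DESeq2 Wald test also called 0 of them. At an unadjusted p under 0.05 there were 3 (Tead4, Lats1 and the Lats2 locus), where 31.6% of all genes reached that level. The fitted log2 fold changes ran from -0.84 to 0.03 with a median of -0.12, beside a median of 0.0075 over all genes. In 9 of the 10 genes the fitted value was below 0, with Amotl2 the exception, while 49.2% of all genes were below 0. Scaling by library size only moved the median of all genes to 0.10 and left 7 of the 10 below 0, with Yap1 and Tead2 turning above 0. The median of the 10 was then -0.023. Relative to the median of all genes, 9 lay below it under either scaling. Without replicate 3 of both genotypes, 7 lay below 0 and 7 below the median of all genes. For 4 genes (Wwtr1, Lats1, the Lats2 locus and Amotl1) every knockout library lay below every WT library, which held for 18.4% of all genes. For 0 genes did every knockout library lie above, which held for 19.2% of all genes.

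**Figure D1:**
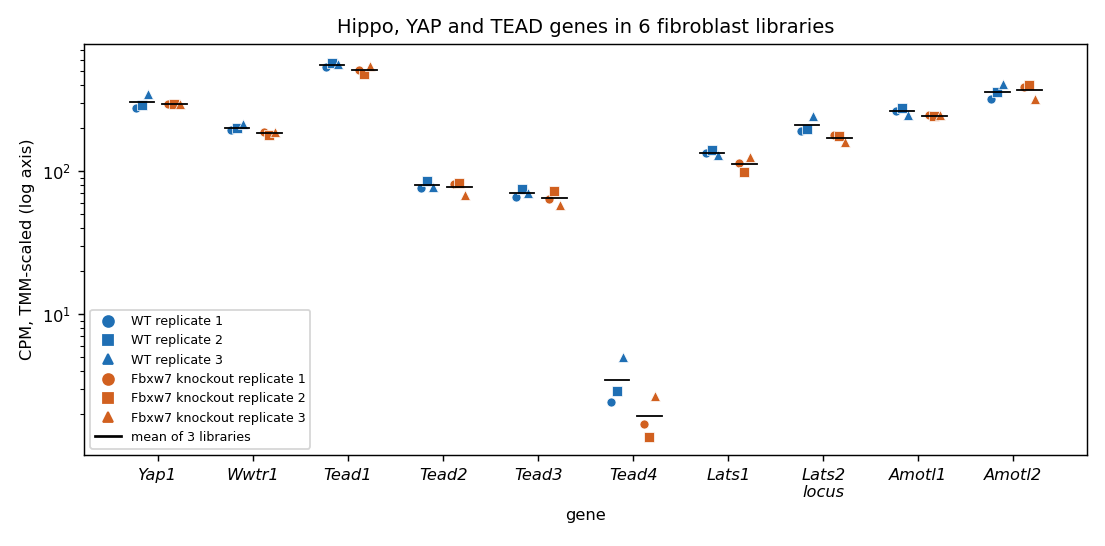
Level of each gene in each library in CPM on a log axis, WT in blue and Fbxw7 knockout in orange, with a separate marker shape per replicate number and a black line at the mean of 3 libraries. The groups overlap or lie close together for every gene, and Tead4 (1.4 to 5.05 CPM) has its highest point in the third library of each genotype; CPM is not scaled by length, so heights compare libraries and not genes.

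Among the coactivators, Yap1 (chromosome 9, 7931999 to 8004596, minus strand, mm10, protein coding) was nearly level across genotypes. Yap1 read 277, 289 and 347 CPM in WT replicates 1, 2 and 3 and 296, 295 and 293 CPM in the knockout. The knockout libraries lay within the WT range, and WT replicate 3 was the highest of the 6, at 1.23 times the mean of WT replicates 1 and 2. The log2 fold change was -0.05 ± 0.11 (SE, n = 3 libraries each, edgeR adjusted p = 0.808), with a 95% interval of -0.30 to 0.21, that is from 18.8% lower to 15.4% higher. Without WT replicate 3 the fitted value was 0.06.

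Wwtr1, the gene of the paralogous coactivator TAZ (chromosome 3, 57455649 to 57575910, minus strand), read 193, 199 and 211 CPM in the WT libraries and 187, 179 and 187 CPM in the knockout. Its groups did not overlap, by a margin that was small beside the spread. The log2 fold change was -0.12 ± 0.08 (edgeR adjusted p = 0.363), with a 95% interval of -0.32 to 0.07. Per length, Yap1 stood above Wwtr1 in all 6 libraries, at 72.0 ± 9.9 against 41.4 ± 2.51 FPKM in WT (SD, n = 3) and 68.2 ± 0.525 against 36.9 ± 0.475 FPKM in the knockout. Yap1 thus made up 62.2% to 65.3% of the summed FPKM of both genes in WT and 64.5% to 65.4% in the knockout. The log2 ratio of Wwtr1 to Yap1 was -0.79 ± 0.11 in WT and -0.89 ± 0.03 in the knockout (SD, n = 3 each). The difference of -0.10 had p = 0.3 in a two-sided exact permutation test, or 0.6 after Benjamini-Hochberg adjustment over 3 paralog ratios, where 3 against 3 libraries cannot go below 0.1.

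TEAD factors bind DNA at the letters GGAATG, or CATTCC on the other strand. These 6 letters were looked for, on both strands, in RefSeq promoter windows of GRCm38.p6 that run from 250 bases before to 50 bases after each annotated start. Of the 10 genes, 8 had an entry (not Tead1 or Tead4), and 4 of these 8 held the letters before at least 1 start: Yap1, Wwtr1, Tead3 and Amotl2. Over all genes in the table the share was 14.4% (3880 of 27025), and over all single windows, including the bases after the start, it was 14.7%. In Lats2 the letters lay 5 bases after a start, and the windows of Tead2, Lats1 and Amotl1 held none. The stretches are shown because they place the pathway's own recognition letters beside the genes that encode it, for Yap1, Wwtr1 and Tead3, together with Ccn1, a well-known target, and Vgll3, a TEAD cofactor gene, whose levels are given further on. The letters of Amotl2 (65 bases before its start) and those before the second start of Tead3 (123 and 114 bases) lie in exons of other transcripts in GENCODE M21, and their stretches are not printed. Also searched were Amot, Ankrd1 and Ccn2, whose levels are given further on. The window of Amot held no match, and Ccn2 had no entry. Ankrd1 held 2 matches before its start, which lie in exons and are not printed. Capitals mark the matching letters, and each stretch is written 5′ to 3′ on the strand of its gene.
Yap1, chr9:8004708-8004761, minus strand, letters beginning 141 bases before the start: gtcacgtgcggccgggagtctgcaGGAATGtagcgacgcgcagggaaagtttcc
Wwtr1, chr3:57576017-57576070, minus strand, 136 bases before the first of 2 listed starts: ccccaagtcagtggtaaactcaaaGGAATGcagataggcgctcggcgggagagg
Tead3, chr17:28350958-28351011, minus strand, 182 bases before the first of 3 listed starts: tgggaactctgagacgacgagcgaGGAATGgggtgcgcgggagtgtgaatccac
Ccn1, chr3:145650059-145650112, minus strand, 103 bases before the start: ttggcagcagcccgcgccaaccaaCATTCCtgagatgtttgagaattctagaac
Vgll3, chr16:65815102-65815155, plus strand, 63 bases before the start: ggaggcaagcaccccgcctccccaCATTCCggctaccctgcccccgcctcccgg
A match describes the letters only and not a bound site. Among the 4 genes with the letters upstream, the fitted log2 fold changes ran on both sides of 0 (Yap1 -0.05, Wwtr1 -0.12, Tead3 -0.13 and Amotl2 0.03).

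Of the TEAD genes, Tead1 (chromosome 7, locus 112612560 to 112906807, plus strand) was the most abundant per length, at 88.6 ± 5.94 FPKM in WT and 73.8 ± 3.25 FPKM in the knockout (SD, n = 3). Tead2 (chromosome 7, 45215753 to 45239115, plus strand), known from early embryos, followed at 58.3 ± 5.56 and 57.4 ± 2.47 FPKM, and Tead3 (chromosome 17, 28331671 to 28350805, minus strand) at 28.1 ± 1.86 and 24.5 ± 2.95 FPKM. Tead4 (chromosome 6, 128224288 to 128300823, minus strand), known for its part in the trophectoderm and in muscle, was at 1.21 ± 0.521 and 0.682 ± 0.242 FPKM. The order Tead1, Tead2, Tead3, Tead4 was the same in all 6 libraries.

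Tead1 read 530, 571 and 556 CPM in the WT libraries and 509, 473 and 544 CPM in the knockout. The groups overlapped, as knockout replicate 3 lay above WT replicate 1, and the log2 fold change was -0.12 ± 0.10 (edgeR adjusted p = 0.466; 95% interval -0.35 to 0.11). On the deposited FPKM scale the same gene read 82.3, 94.1 and 89.6 in WT and 72.8, 77.4 and 71.1 in the knockout, so that the groups did not overlap. Estimation for Tead1 was marked FAIL by the authors' table in all 3 WT libraries and in knockout replicate 2, and the deposited FPKM bounds reached from 0 to 149.9. Tead2 read 76.7, 84.9 and 76.8 CPM in the WT libraries and 81.0, 82.9 and 68.5 CPM in the knockout (log2 fold change -0.04 ± 0.10, edgeR adjusted p = 0.845). Tead3 read 66.3, 75.0 and 70.7 CPM in the WT libraries and 63.8, 71.9 and 58.3 CPM in the knockout (-0.13 ± 0.11, edgeR adjusted p = 0.456). In both, knockout replicate 3 was the lowest of the 6 libraries. Tead2 overlaps Cd37 on the other strand, and without strand information their reads cannot be told apart.

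Tead4 had the lowest depth of the 10 genes, with 83.1 to 309 estimated fragments per library. It read 2.42, 2.89 and 5.05 CPM in the WT libraries and 1.7, 1.4 and 2.7 CPM in the knockout. In each genotype the third library was the highest, at 1.9 times the mean of the other two in WT and 1.74 times in the knockout, and knockout replicate 3 lay above WT replicate 1. The log2 fold change of -0.84 ± 0.35 was the largest in size of the 10 but did not pass (edgeR adjusted p = 0.149; 95% interval -1.65 to -0.02). Leaving out WT replicate 3 gave -0.46 (edgeR adjusted p = 0.332), leaving out knockout replicate 3 gave -1.17 (0.0636), and leaving out both gave -0.78 (0.00613). With both left out, 6993 of all genes passed in edgeR, against 2705 with all 6 libraries.

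The make-up of the TEAD pool differed slightly between genotypes on the FPKM scale, a description computed after the values were seen and not tested. The Tead1 estimates that enter these shares were marked FAIL in all 3 WT libraries and in knockout replicate 2. Tead1 made up 49.7%, 49.6% and 51.6% of the summed TEAD FPKM in WT and 46.7%, 47.0% and 48.0% in the knockout. Tead2 made up 34.0%, 34.1% and 31.2% in WT and 37.3%, 36.0% and 36.8% in the knockout, again without overlap. Tead3 stayed between 14.6% and 16.7% in the 6 libraries and Tead4 at or below 1.04%. In CPM, which does not depend on the estimated transcript length, the Tead1 share was 77.8% to 78.5% in WT and 75.2% to 80.8% in the knockout, and the Tead2 share 10.8% to 11.6% and 10.2% to 13.2%, so both ranges overlapped there. The Tead1 estimated counts behind these CPM shares were marked FAIL in the same libraries. The summed TEAD FPKM was 176 ± 12.2 in WT and 156 ± 8.24 in the knockout (SD, n = 3).

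**Figure D2:**
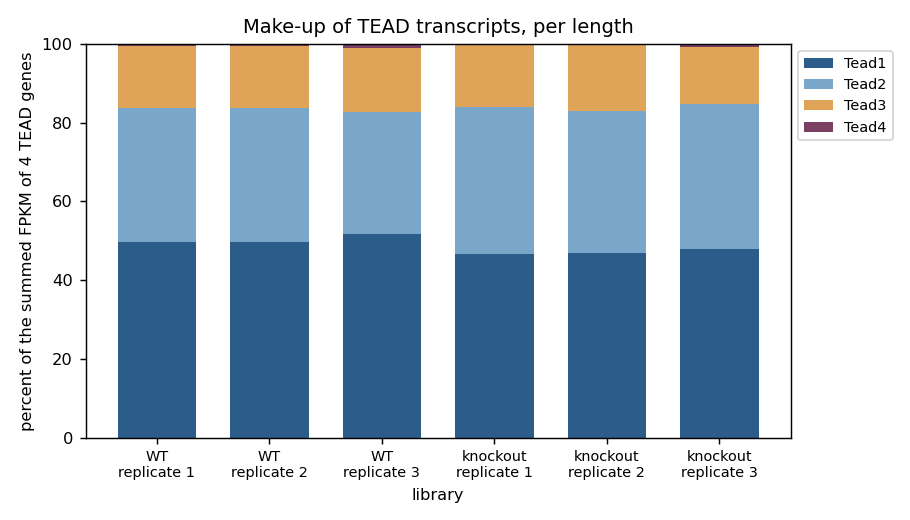
Share of each TEAD gene in the summed FPKM of the 4 genes, as stacked bars from 0 to 100 percent, 1 bar per library. Tead1 fills 49.6% to 51.6% of the WT bars and 46.7% to 48.0% of the knockout bars, and Tead4 is a thin strip at the top. Tead1 was marked FAIL in all 3 WT libraries and in knockout replicate 2.

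After Tead4, the fitted decreases of the Lats2 locus, a row shared with other genes, and of Lats1 were the largest of the 10. Lats1 (chromosome 10, 7681214 to 7716460, plus strand) read 133, 141 and 130 CPM in the WT libraries and 113, 97.9 and 125 CPM in the knockout. Each knockout value was under the lowest WT value, and the knockout mean was 83.1% of the WT mean. The log2 fold change was -0.27 ± 0.11 (unadjusted p = 0.0394 and adjusted p = 0.136 in edgeR; 95% interval -0.52 to -0.02). Knockout replicate 1 was marked FAIL for this gene. Without knockout replicate 3 Lats1 passed in edgeR, at -0.36 with an adjusted p of 0.0427, and without replicate 3 of both genotypes at -0.38 with an adjusted p of 0.0023. Without the other single libraries its adjusted p in edgeR lay between 0.134 and 0.324. Over all genes, 3282 passed without knockout replicate 3 and 6993 without replicate 3 of both genotypes, against 2705 with all 6 libraries.

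Lats2 could not be read on its own. Its row (chromosome 14, 57577521 to 57758388, minus strand) also held Xpo4, a nuclear transport receptor gene, and Gm49361, all on the same strand, while Lats2 itself spans 57689662 to 57758388. The shared locus read 189, 197 and 243 CPM in the WT libraries and 177, 175 and 160 CPM in the knockout. Again the groups did not overlap, with WT replicate 3 the highest at 1.26 times the mean of WT replicates 1 and 2. The log2 fold change was -0.30 ± 0.12 (unadjusted p = 0.0357 and adjusted p = 0.128 in edgeR; 95% interval -0.57 to -0.03). Without WT replicate 3 it was -0.18 with an adjusted p of 0.209 in edgeR, and without replicate 3 of both genotypes it was -0.14. The log2 FPKM ratio of the Lats2 locus to Lats1 was 1.08 ± 0.33 in WT and 0.99 ± 0.18 in the knockout (SD, n = 3 each; difference -0.09, exact permutation p = 0.8, also 0.8 after adjustment), and its sign turned without WT replicate 3, at 0.10.

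Of the angiomotin-like scaffolds, Amotl1 (chromosome 9, 14541966 to 14645792, minus strand) read 263, 277 and 247 CPM in the WT libraries and 245, 241 and 246 CPM in the knockout. The groups stood apart by under 1 CPM, and the log2 fold change was -0.10 ± 0.09 (edgeR adjusted p = 0.466; 95% interval -0.31 to 0.10). Amotl2 (chromosome 9, 102716672 to 102733418, plus strand) read 316, 355 and 405 CPM in the WT libraries and 383, 400.2 and 318 CPM in the knockout. The third library was the highest in WT and the lowest in the knockout, so the groups overlapped over nearly their whole range. The log2 fold change was 0.03 ± 0.13 (edgeR adjusted p = 0.892; 95% interval -0.27 to 0.34). Without replicate 3 of both genotypes Amotl2 was higher in the knockout, at 0.22 with an adjusted p of 0.0354 in edgeR. That fit called 6993 of all genes, against 2705 with all 6 libraries. The log2 FPKM ratio of Amotl2 to Amotl1 was 1.63 ± 0.27 in WT and 1.82 ± 0.16 in the knockout (SD, n = 3 each; difference 0.18, exact permutation p = 0.4, or 0.6 after adjustment). Amotl2 stood at 3.1 times Amotl1 in WT and 3.52 times in the knockout by mean ratio.

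**Figure D3:**
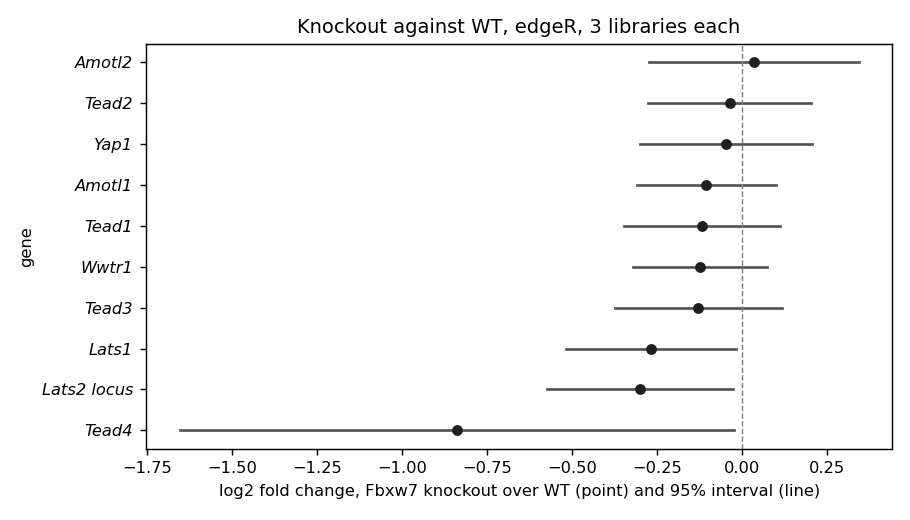
Fitted log2 fold change of each gene, knockout over WT, with its 95% interval, sorted by value. The points lie between -0.84 (Tead4) and 0.03 (Amotl2), and the intervals of Tead4, Lats1 and the Lats2 locus end just below 0 before any adjustment over genes.

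Per length and over the 6 libraries, Amotl2 had the highest mean (95.9 FPKM, range 83.1 to 110.5), followed by Tead1 (81.2 FPKM), Yap1 (70.1 FPKM), Tead2 (57.8 FPKM), Wwtr1 (39.1 FPKM), the Lats2 locus (34.7 FPKM), Amotl1 (28.9 FPKM), Tead3 (26.3 FPKM), Lats1 (16.8 FPKM) and Tead4 (0.947 FPKM). In WT the neighbours Amotl2 and Tead1, Tead1 and Yap1, Wwtr1 and the Lats2 locus, and Amotl1 and Tead3 overlapped in their ranges over libraries. In the knockout only Amotl1 and Tead3 overlapped among neighbours in that order. Lats1 lay below Yap1 in each of the 6 libraries, with 13.6 to 19.7 FPKM against 64.6 to 83.2 FPKM.

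The genes most like Yap1 over the 6 libraries, among 8241 loci that held 1 gene name, no predicted-gene, Riken or pseudogene name, and a mean of at least 10 CPM, were Coro1c (Pearson r = 0.992 of log2 CPM, n = 6 libraries), Rfx5 (0.99) and Tnfrsf12a (0.99). They shared with Yap1 a high WT replicate 3: Tnfrsf12a, a receptor gene of the TNF family, read 40.7, 42.0 and 86.2 CPM in the WT libraries and 47.9, 49.2 and 47.0 CPM in the knockout. For the Lats2 locus, which had the smallest adjusted p of the 10, they included the actin-associated genes Zyx (0.996) and Swap70 (0.993). Zyx read 235, 266 and 385 CPM in the WT libraries and 198, 197 and 166 CPM in the knockout. The named genes were among the highest of all those compared, over 6 points that share libraries. Across the genes compared, 103 of 8241 had r above 0.9 with Yap1 and 327 of 8242 with the Lats2 locus.

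The rest of the pathway was read from a list of 39 other genes by role, of which 37 could be tested, 1 of them (Ptpn14) also on the target list. Of the 37, 2 were higher and 6 lower in the knockout by edgeR, together 21.6%, near the 16.1% of all genes, with a median log2 fold change of -0.09. Scaled by library size only, 4 were higher and 4 lower. In the core kinase module none of 5 genes passed in edgeR or DESeq2. None had an unadjusted p under 0.05 in edgeR (0 genes), where 31.6% of all genes did. Its most abundant members by FPKM were Mob1a, a LATS cofactor gene (266 ± 8.0 CPM in the WT libraries and 285 ± 9.8 CPM in the knockout), and the scaffold gene Sav1 (93.8 ± 2.32 and 91.8 ± 1.82 CPM; SD, n = 3 each).

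Among 17 upstream activators and scaffolds, 3 kinase genes fell and 1 rose in edgeR, together 23.5%, near the 16.1% of all genes. MAP4K and TAO kinases can phosphorylate LATS kinases alongside STK3 and STK4. Map4k3 read 128, 127 and 130 CPM in the WT libraries and 71.4, 69.6 and 85.1 CPM in the knockout, a log2 fold change of -0.77 ± 0.10 (edgeR adjusted p = 0.00298). Taok1 read 148, 151 and 138 CPM against 99.7, 75.9 and 107 CPM (-0.63 ± 0.13, edgeR adjusted p = 0.0191). The knockout libraries lay below WT in both. Map4k5 fell by a smaller step, from 174 ± 3.13 to 134 ± 5.74 CPM (-0.38 ± 0.08, edgeR adjusted p = 0.0209). Map4k1, a kinase gene known from blood cells, rose from 1.19 ± 0.265 to 2.53 ± 0.0791 CPM (1.10 ± 0.22, edgeR adjusted p = 0.0165). Map4k3 stayed past the threshold without any single library. Taok1 did not without WT replicate 1, WT replicate 2 or knockout replicate 1 (edgeR adjusted p of 0.0686, 0.0716 and 0.0589), Map4k5 not without WT replicate 1 or 2 or knockout replicate 1 or 2 (0.088, 0.0656, 0.0988 and 0.0801), and Map4k1 not without WT replicate 2 or knockout replicate 1 or 2 (0.0552, 0.0596 and 0.055).

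Of the 9 genes whose products hold the kinases back, Strn3, a subunit gene of the STRIPAK phosphatase complex, fell from 121 ± 3.07 to 90.0 ± 9.29 CPM (-0.43 ± 0.10, edgeR adjusted p = 0.0248). It did not pass without WT replicate 1 or 2 or knockout replicate 1 or 2 (edgeR adjusted p of 0.0947, 0.0716, 0.0962 and 0.0774). Scaled by library size only, neither Strn3 (-0.33, edgeR adjusted p = 0.0706) nor Map4k5 (-0.28, 0.0631) passed. Of 8 listed partners of YAP and TEAD proteins, Vgll1 and Vgll2 were below the filter (at most 0.0498 CPM). Of the 6 tested, 2 fell and 1 rose in edgeR, where 16.1% of all genes passed. Vgll3, a TEAD cofactor gene, read 236, 244 and 265 CPM in the WT libraries and 133, 116 and 149 CPM in the knockout (-0.90 ± 0.12, edgeR adjusted p = 0.00262). Amot, the X-linked founding gene of the angiomotin family (chromosome X, 145446425 to 145505181), read 173, 179 and 139 CPM against 68.0, 65.0 and 96.4 CPM (-1.10 ± 0.17, edgeR adjusted p = 0.00594). In both genes the genotypes stood clear of each other, and both stayed past the threshold without any single library. Once replicates 1 and 2 were added together within each genotype, the edgeR adjusted p was 0.0516 for Vgll3, 0.0894 for Amot and 0.0723 for Map4k3. Within the angiomotin family, Amot thus fell to 46.7% of WT by fitted fold (0.467), beside fitted folds of 0.93 for Amotl1 and 1.02 for Amotl2. The difference between the genes was not tested. For X-linked Amot, genotype and the Xist difference that coincided with it cannot be told apart. Stk38l, a kinase gene related to Lats1, rose from 20.9 ± 0.968 to 27.3 ± 1.59 CPM (0.39 ± 0.10, edgeR adjusted p = 0.0366), and its adjusted p lay between 0.0508 and 0.136 without each of the 6 libraries.

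**Figure D4:**
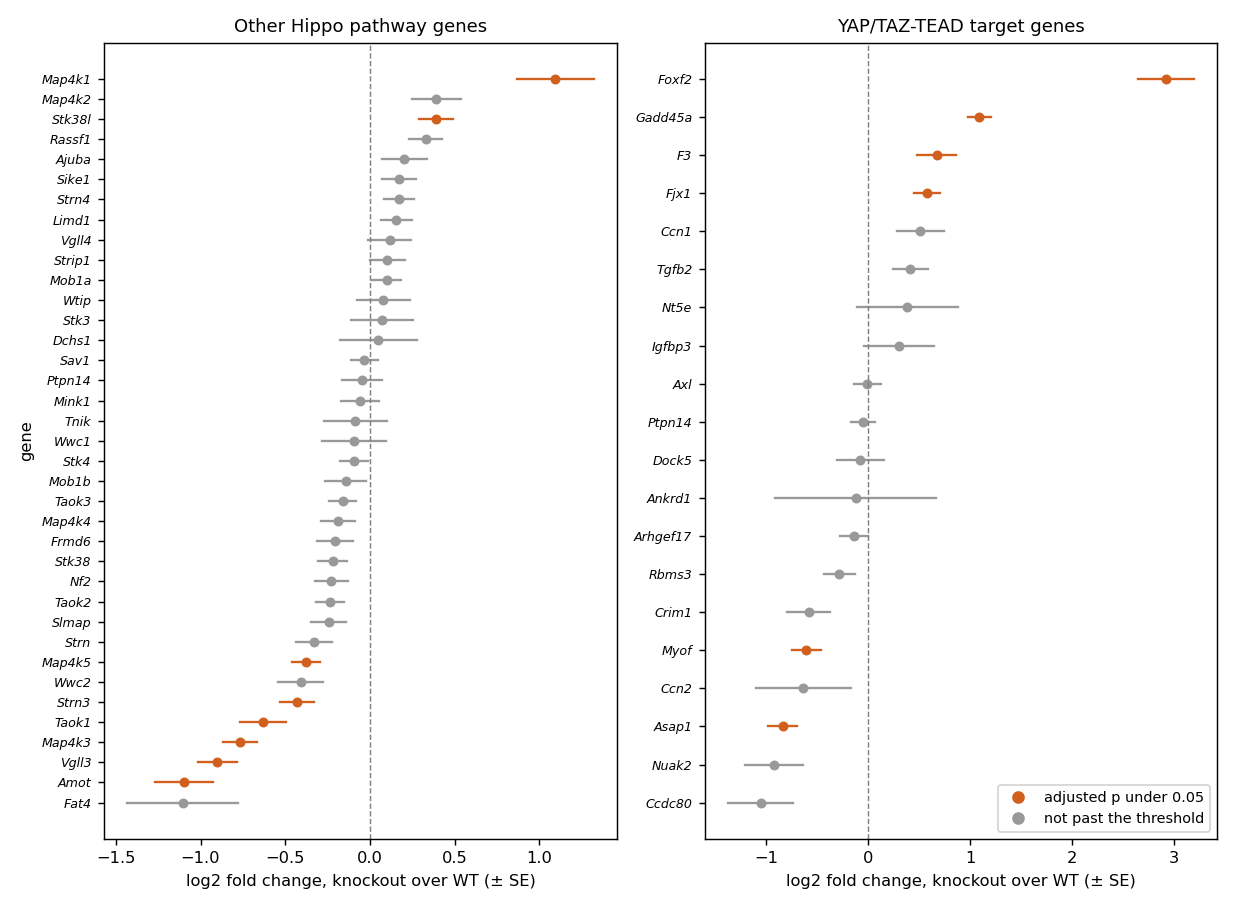
Log2 fold change with its standard error for 37 other pathway genes (left) and 20 target genes (right), sorted by value, with genes past an adjusted p of 0.05 in orange. The orange points lie on both sides of 0, with Amot at -1.10 and Map4k1 at 1.10 on the left, and Asap1 at -0.84 and Foxf2 at 2.92 on the right.

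A list of 20 genes known to respond to YAP, TAZ and TEAD in other cells split by direction. By edgeR 4 were higher and 2 lower in the knockout, where 8.03% and 8.08% of all genes were, and the median log2 fold change was -0.06. Of those that rose, Foxf2, a forkhead factor gene of mesenchyme, read 0.605, 0.581 and 0.343 CPM in the WT libraries and 4.46, 3.9 and 3.23 CPM in the knockout (2.92 ± 0.28, edgeR adjusted p = 0.000783). Gadd45a, a growth arrest and DNA damage gene, read 41.5, 40.2 and 33.0 CPM against 84.4, 81.2 and 78.4 CPM (1.09 ± 0.11, edgeR adjusted p = 0.000984). Both kept their calls under every alternative run for them. F3, the tissue factor gene that starts coagulation, rose from 250.3 ± 17.6 to 399 ± 103 CPM (0.67 ± 0.19, edgeR adjusted p = 0.0493), and Fjx1, which encodes a secreted regulator of atypical cadherins, from 15.5 ± 0.934 to 23.2 ± 2.94 CPM (0.58 ± 0.13, edgeR adjusted p = 0.0207). The call of F3 held without knockout replicate 3 (0.00192) but not without any other single library (0.0606 to 0.169), and that of Fjx1 not without WT replicate 1 or 2 or knockout replicate 1 or 2 (0.0917, 0.0641, 0.102 and 0.0684).

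Of those that fell, Asap1, an ARF regulator gene of focal adhesions, read 358, 368 and 502 CPM in the WT libraries and 237, 229 and 221 CPM in the knockout (-0.84 ± 0.14, edgeR adjusted p = 0.00849). Myof, a membrane repair gene, read 671, 671 and 870 CPM against 524, 505 and 426 CPM (-0.60 ± 0.14, edgeR adjusted p = 0.0275). In both the groups did not overlap and WT replicate 3 was the highest library. Asap1 stayed past the threshold without any single library but not with replicates 1 and 2 summed (edgeR adjusted p = 0.0768), while Myof did not without WT replicate 1 or 2 or knockout replicate 1 or 2 (edgeR adjusted p of 0.0602, 0.0576, 0.0776 and 0.0778).

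The targets most often read as a measure of YAP activity had wide spreads between libraries of 1 genotype. Ccn2, a matricellular growth factor gene listed as Ctgf, read 246, 256 and 877 CPM in the WT libraries and 316, 327 and 246 CPM in the knockout. Its log2 fold change was -0.63 ± 0.47 (edgeR adjusted p = 0.403), and it turned to 0.24 without WT replicate 3 (adjusted p = 0.284). Without replicate 3 of both genotypes it was 0.36 with an adjusted p of 0.00106 in edgeR, where 6993 of all genes passed. Ankrd1, a stretch-responsive gene of muscle and fibroblasts, read 18.4, 15.4 and 71.6 CPM in the WT libraries and 13.5, 14.9 and 68.5 CPM in the knockout (-0.12 ± 0.79, edgeR adjusted p = 0.937). The third library was high in both genotypes, at 4.23 and 4.83 times the mean of the other two. Ccn1, a related matricellular gene listed as Cyr61, read 266, 298 and 495 CPM against 480, 575 and 454 CPM (0.51 ± 0.23, edgeR adjusted p = 0.177), and it passed without WT replicate 3, at 0.83 with an adjusted p of 0.00784. The Yap1 level of the same libraries spanned 277 to 347 CPM.

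**Figure D5:**
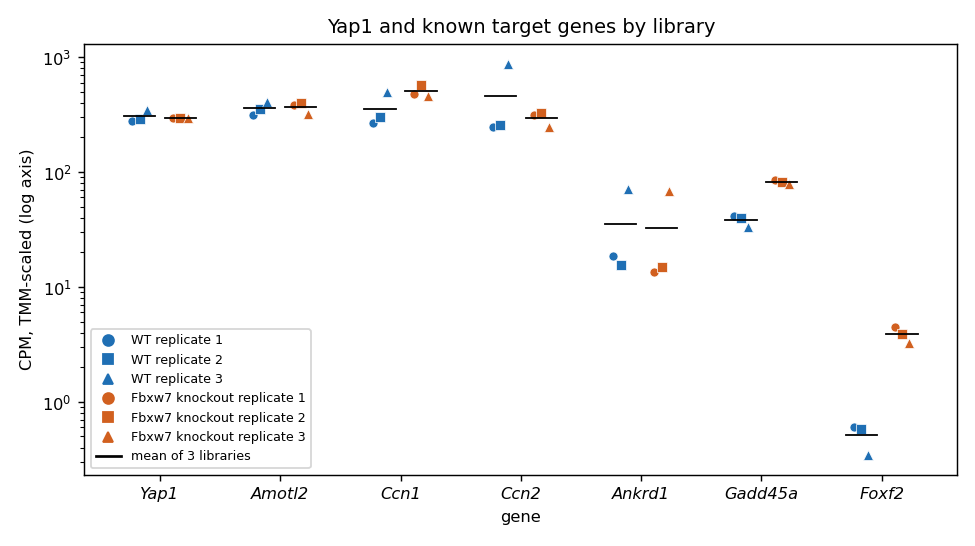
Level of Yap1, Amotl2 and 5 known target genes in each library in CPM on a log axis, WT in blue and knockout in orange, with triangles for replicate 3 and a black line at each mean. Ankrd1 is at 71.6 and 68.5 CPM in the triangles and at 13.5 to 18.4 CPM in the other 4 libraries, Ccn2 is high in the WT triangle alone, and Gadd45a and Foxf2 separate by genotype.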

How the data were processed

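Per the submitters' processing notes, TopHat2 2.1.1, SAMtools 1.5, deepTools and Cufflinks 2.2.1 were used on mm10; the annotation and strand use are not stated in the sources used here, so reads of antisense neighbours cannot be told apart. The authors deposited estimated counts (expected fragments per locus) and FPKM values for 53323 loci, in Cufflinks tracking format per the file headers. In each library 89.0% to 89.6% of estimated counts up to 1000 were whole multiples of 1 step (tolerance 0.05). The 1317 unnamed loci (no more than 3.13e-05% of any library) and 9 named loci marked HIDATA were left out, and loci marked FAIL were kept.

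Estimated counts were rounded and tested over all genes by edgeR 4.0.16, run in R 4.3.3 (TMM scaling, filterByExpr, robust quasi-likelihood, two-sided, Benjamini-Hochberg over 16787 genes), after a check on simulated data. Each standard error is the log2 change over the root of its F statistic. Paralog ratios used the deposited FPKM and exact permutation tests (scipy 1.17.1). Depth was 55720129 to 64198455 fragments per library; without molecular identifiers, this depth speaks to counting error only. Positions are those of the deposited loci, with strands and the span of Lats2 from GENCODE M21, and promoters came from RefSeq.

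The genes and lists were chosen with earlier results of these data known. Named were the 10 genes, Fbxw7, per role class of other pathway genes up to 3 per direction past the threshold, by adjusted p (or, where none passed, the 2 of highest FPKM), Ccn1, Ccn2, Ankrd1, up to 4 targets per direction, and the 3 genes most correlated with Yap1 and with the member of smallest adjusted p, of which 1 is not reported here. Lists were described by counts, with no set test. Alternatives were other scalings and filters, DESeq2 1.42.0, a replicate block, libraries left out or summed, counts divided by the step, and limma 3.58.1 on log2(FPKM + 1) or log2(FPKM + 0.1).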

Additional observations from a re-analysis of the deposited data

How the results depend on the processing

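The count of genes past the threshold over all genes was 6993 without replicate 3 of both genotypes, 478 with replicates 1 and 2 summed, and 1562, 1615 and 1182 with limma on log2(FPKM + 1), log2(FPKM + 0.1) and log2(FPKM + 1) without a filter, against 2705 in edgeR; leaving out 1 library gave 1169 to 3282. Of the 10 genes, 1 was higher (Amotl2) and 2 were lower (Tead4 and Lats1) without replicate 3 of both genotypes; leaving out 1 library gave 0 higher throughout and 0 to 1 lower, and no other alternative called any. Other pathway genes higher numbered 4 by library size only, 1 without a count filter, 10 without replicate 3 of both genotypes, 0 with replicates 1 and 2 summed and 0 in each of the 3 limma fits; leaving out 1 library gave 0 to 3. Those lower numbered 0 with replicates 1 and 2 summed, 14 without replicate 3 of both genotypes, and 3 to 8 with 1 library left out. Target genes higher numbered 8 without replicate 3 of both genotypes, 2 with replicates summed, and 1, 1 and 2 in the limma fits in the order above; leaving out 1 library gave 2 to 5. Targets lower numbered 5 by DESeq2, 8 without replicate 3 of both genotypes, 0 with replicates summed and 1 by limma without a filter; leaving out 1 library gave 1 to 5. The cause of these differences was not tested.

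The deviations of same-numbered libraries from their genotype means had correlations of 0.0237, 0.0979 and 0.0788 over genes, so the numbers were not taken to pair the samples, and WT replicate 1 correlated best with knockout replicate 1, but WT replicate 2 was the best match of both knockout replicates 1 and 2. With the replicate number as a block, 2356 genes passed, 0 of the 10 genes, 1 other pathway gene higher and 6 lower, and 3 targets higher and 1 lower; Stk38l, F3 and Myof had adjusted p of 0.0577, 0.0944 and 0.0657 there. The blocked ratio differences were -0.10, -0.09 and 0.18 for Wwtr1 to Yap1, Lats2 to Lats1 and Amotl2 to Amotl1. Without 1 library they ran from -0.16 to -0.06, from -0.21 to 0.10 and from 0.08 to 0.34; that of Lats2 to Lats1 turned to 0.10 without WT replicate 3 and 0.0055 without knockout replicate 3.

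Over the 10 genes, 15 of 188 alternative fold changes changed sign, all of genes near 0. Yap1 was at 0.049 by library size only and 0.062 without replicate 3 of both genotypes, and ran from -0.11 to 0.056 (without WT replicate 3) with 1 library left out. Tead2 was at 0.0025 with upper-quartile factors, 0.058 by library size only and 0.020 without replicate 3 of both genotypes, and ran from -0.092 to 0.040 (without knockout replicate 3; 0.011 without WT replicate 2). Amotl2 was at -0.065 with replicates 1 and 2 summed and -0.019 in each of the 3 limma fits, and ran from -0.052 (without WT replicate 1) to 0.13; it was -0.0027 and -0.037 without knockout replicates 1 and 2. Sav1 was at 0.0073 with upper-quartile factors, 0.064 by library size only and 0.00091 without replicate 3 of both genotypes. Ccn2 was at 0.36 without replicate 3 of both genotypes and ran from -0.94 to 0.24 (without WT replicate 3). Ankrd1 ran from -1.32 to 0.93 (without WT replicate 3), with 0.23 and 0.21 without knockout replicates 1 and 2. Of the 262 alternative values of the 14 other named genes that passed with all 6 libraries, 64 did not pass. Of the 10 genes, depth limits Tead4 most, and limma with a mean FPKM of at least 1 could not include it. Foxf2 (21.0 to 260 estimated fragments per library) and Map4k1 (54.2 to 153) were left out there as well.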
